A study of Homo sapiens with 2 samples.

Results

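Solute carriers are membrane transporters that move nutrients, ions, metals, vitamins and metabolites across the plasma membrane and the membranes of organelles. Their symbols start with SLC and a family number, and a family groups transporters of related sequence and often of related cargo. IGF2BP3 is an RNA-binding protein that is known as a reader of N6-methyladenosine (m6A) and as a factor that stabilizes its target mRNAs. Its sites are often described in 3′ UTRs and in coding sequence, and GGAC is the core of the sequence context in which m6A is commonly placed.

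The peaks described here are IGF2BP3 binding regions that overlapped by at least 1 bp an exon of a protein-coding gene whose symbol starts with SLC and a number. Exons were those of GENCODE release 44 on hg38 and 2 SLC genes, SLC40A1 and SLC11A2, were left out. Of the 21142 peaks of replicate 1, 17650 lay over an exon of any protein-coding gene and 382 over an exon of an SLC gene. Of the 20799 peaks of replicate 2, the numbers were 17803 and 373.

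The peaks came from LACE-seq of OE-19 cells, an established cell line. It derives from a tumour of the esophagogastric junction, an adenocarcinoma. In LACE-seq, RNA is crosslinked to protein by UV light and immunoprecipitated, and cDNA ends are amplified linearly before sequencing. Both libraries belong to 1 group of OE-19 cells grown in RPMI1640 with serum and antibiotics, and the labels number them as replicates 1 and 2 without naming separate cultures. The study's text calls them biological replicates. Neither an input nor an IgG library was used, so at a called peak specific binding cannot be told apart from transcript abundance or non-specific signal. A gene without a peak may be bound too weakly to be called or may not be expressed in these cells.

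Depth was read from the peaks. The number of reads stacked at each summit, called the pileup here, could be recovered as a whole number for every peak. Its median over the SLC peaks was 26 reads in replicate 1 and 27 reads in replicate 2, from 5 to 164 and from 6 to 191 reads. The fold enrichment that the deposited lists give is the pileup over a local background of reads around the peak. Intervals are Wilson 95% confidence intervals of a share. They cover counting error only and treat peaks as independent, although several peaks often share a gene.

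Sequences under summits of several strong shared peaks are shown first, because they carry the coding and UTR sites that the results below return to. Each is 101 nt of coding sequence centred on the summit of 1 replicate, written 5′ to 3′ on the strand of the gene from hg38, with every GGAC in capitals.
SLC7A5, chr16:87869222-87869322, minus strand, first exon: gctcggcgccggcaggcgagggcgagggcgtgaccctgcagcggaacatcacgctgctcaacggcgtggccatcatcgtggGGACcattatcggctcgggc
SLC3A2, chr11:62888389-62888489, plus strand, under the peak over exons 8 and 9: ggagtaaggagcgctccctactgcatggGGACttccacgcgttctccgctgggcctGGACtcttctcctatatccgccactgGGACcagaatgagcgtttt
SLC12A2, chr5:128084366-128084466, plus strand, first exon: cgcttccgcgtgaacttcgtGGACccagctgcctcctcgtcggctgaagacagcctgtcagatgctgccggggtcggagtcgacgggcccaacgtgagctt
SLC7A1, chr13:29536084-29536184, minus strand, exon 3: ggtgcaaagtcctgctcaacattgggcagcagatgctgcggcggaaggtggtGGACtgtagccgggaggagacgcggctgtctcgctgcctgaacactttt
SLC39A6, chr18:36126659-36126759, minus strand, exon 2: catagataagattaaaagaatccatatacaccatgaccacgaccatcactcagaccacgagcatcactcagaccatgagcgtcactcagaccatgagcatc
The window of SLC3A2 held 3 copies of GGAC, those of SLC7A5, SLC12A2 and SLC7A1 held 1 copy, and that of SLC39A6 held 0. In SLC7A5 the summit of the other replicate lay 103 bp away, outside the window. In the other genes it lay 2 to 37 bp away, inside the window. The GC content of the windows was 70.3% in SLC7A5, 58.4% in SLC3A2, 65.3% in SLC12A2, 60.4% in SLC7A1 and 45.5% in SLC39A6.

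A further pair of windows of 29 nt comes from shared UTR peaks of high fold, and neither held GGAC. Both are centred on the summit of replicate 1. The summit of replicate 2 lay 2 bp away in SLC7A11 and 94 bp away, outside the window, in SLC35D2.
SLC7A11, chr4:138242308-138242336, minus strand, 5′ UTR: agggcggcagcagcagcagcagcagcagt
SLC35D2, chr9:96321127-96321155, minus strand, 3′ UTR: ttcgtgacatccaccccctgggcaagtga
Over all SLC peaks, GGAC lay within 50 nt of the summit on the gene strand in 30.1% of peaks of replicate 1 (interval 25.7 to 34.9) and 33.5% of replicate 2 (28.9 to 38.4). Over all protein-coding exon peaks the shares were 29.4% and 32.5%, inside those intervals. TGGAC, which contains GGAC, lay in 9.42% and 11.5% of the SLC windows and in 10.1% and 10.2% of all windows. A match is a description of the letters in the window, and m6A was not measured here.

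The first question was how much of the SLC superfamily carried peaks. Peaks lay in 143 of the 371 SLC genes in replicate 1 and in 157 in replicate 2. In all, 171 genes (46.1%) had a peak in either list, 129 (34.8%) in both lists, and 111 had a pair of overlapping peaks, 1 from each list. Over the 20020 protein-coding genes, 41.7% had an exon peak in either list, 29.4% in both and 26.0% an overlapping pair, and no test of the difference was made. No peak was called in 200 SLC genes. Both lists held a peak for 75.4% of the 171 SLC genes, against 70.5% of all protein-coding genes that had an exon peak, and this difference was not tested. The other 42 SLC genes had peaks in 1 list, and 29 of them had a single peak. Single-peak genes were not counted over all protein-coding genes.

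Recurrence between the replicates followed that of other genes. In replicate 1, 237 of 382 SLC peaks (62.0%, interval 57.1 to 66.8) overlapped a peak of replicate 2, against 61.9% of all protein-coding exon peaks. In replicate 2, 235 of 373 (63.0%, 58.0 to 67.7) overlapped a peak of replicate 1, against 61.5%. The mean over replicates was 62.5% ± 0.679 (SD, n = 2). Both SLC intervals contained the share of all exon peaks.

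Recurrence moved with depth. Among SLC peaks with a pileup of at most 14 reads, 34.2% of replicate 1 (interval 24.7 to 45.2) and 30.99% of replicate 2 (21.4 to 42.5) recurred. Among those with 37 reads or more, 86.2% (79.0 to 91.2) and 82.0% (74.8 to 87.5) recurred. The intervals of the shallow and deep peaks did not overlap in either list. Over all protein-coding exon peaks the shallow and deep shares were 41.1% and 82.6% in replicate 1, and 39.5% and 83.0% in replicate 2.

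Peaks were spread over 43 of the 50 SLC families, and 40 families had a peak in both lists. The families with most peaks were SLC25 and SLC35. SLC25, the carriers of the inner mitochondrial membrane, had 46 and 52 peaks in replicates 1 and 2. SLC35, the family that holds the nucleotide sugar transporters of the secretory pathway, had 43 and 42. SLC7 had 27 and 24, SLC9 had 26 and 23, and SLC39 had 31 and 15. SLC39, the ZIP zinc importers, was the family in which the lists differed most in number.

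**Figure D1:**
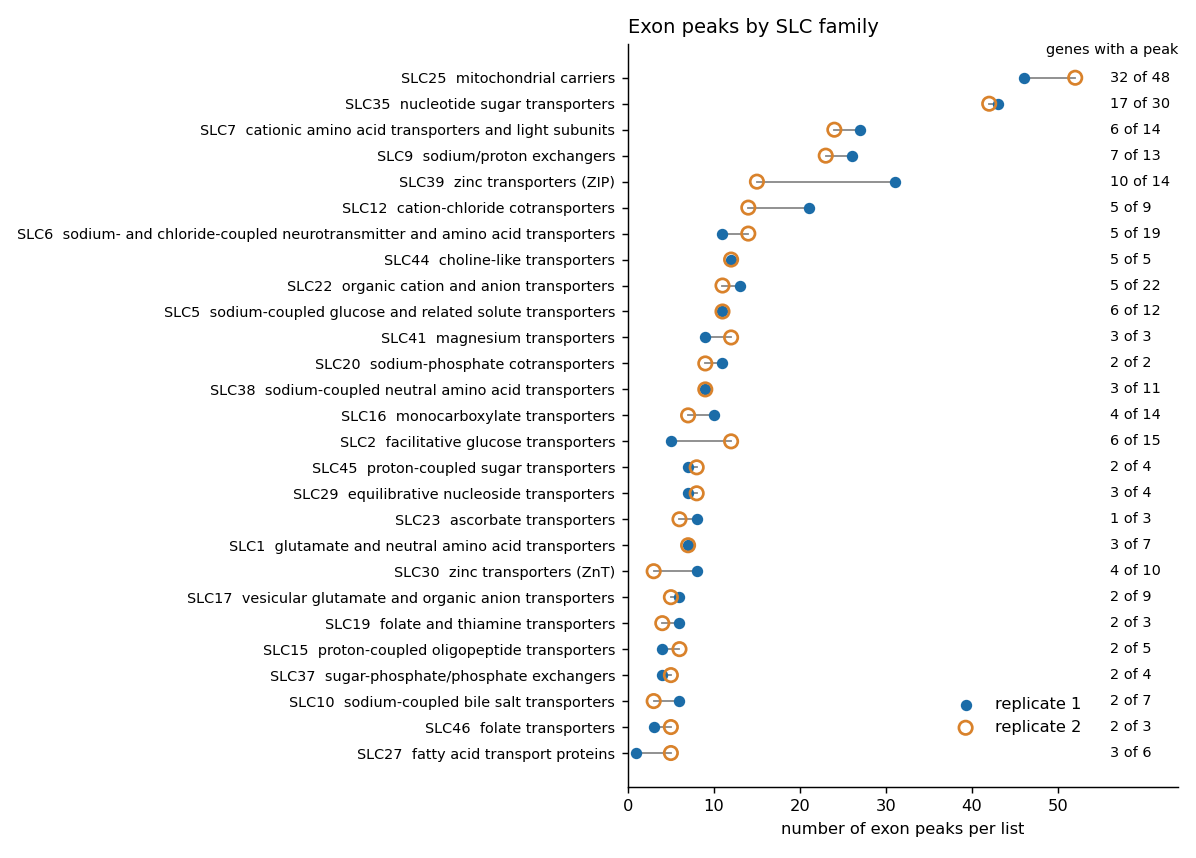
Number of exon peaks in each list (x axis) for the SLC families with at least 5 peaks in either list (y axis), filled points for replicate 1 and open circles for replicate 2, with the number of family genes that had a peak in either list at the right. SLC25 and SLC35 hold the most peaks, most families have nearly the same number in both lists, and SLC39 falls from 31 to 15.

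Genes with a peak in either list were counted by group of cargo, beside 41.7% of all protein-coding genes, and no test was made between groups. Mitochondrial carriers had a peak in either list in 32 of 48 genes and in both lists in 25. Metal transporters had one in 19 of 31 genes and vitamin and nucleoside transporters in 11 of 19. The nucleotide sugar group, which is all of SLC35, had one in 17 of 30 genes and sugar transporters in 16 of 36. Amino acid transporters had peaks in 27 of 69 genes, ion transporters in 23 of 57, and the transporters of other organic solutes in 25 of 79. The shares of the amino acid (39.1%), ion (40.4%) and sugar (44.4%) groups lay near that of all protein-coding genes. Every gene of SLC3, SLC20, SLC33, SLC41 and SLC44 had a peak in both lists, but these families have 1 to 5 genes. No peak lay in the 15 genes counted of SLC11, SLC13, SLC14, SLC32, SLC34, SLC47 and SLC50. SLC11 was counted without SLC11A2, which had been left out. Expression was not measured in these files, and its part in these counts was not tested.

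Within a transcript, summits fell mainly in coding sequence and in the 3′ UTR. In replicate 1, 32.7% of SLC summits lay in CDS (interval 28.2 to 37.6), 33.2% in a 3′ UTR (28.7 to 38.1), 20.2% in an intron beside the exon and 8.38% in a 5′ UTR. In replicate 2 the shares were 29.2% (24.8 to 34.0), 27.3% (23.1 to 32.1), 18.2% and 15.5%. The 2 lists thus differed in the 5′ UTR share, with intervals that reached up to 11.6 and down to 12.2. All protein-coding exon peaks moved the same way, from 7.91% to 13.98%. Of all exon peaks, 34.9% and 34.97% had their summit in CDS. That was inside the SLC interval in replicate 1 and above it in replicate 2. Introns held 24.6% and 22.3%, just above the SLC interval in replicate 1 (16.4 to 24.5) and inside it in replicate 2 (14.6 to 22.5). Summits outside the gene bounds made up 2.09% (1.06 to 4.08) and 5.63% (3.71 to 8.45) of SLC peaks, against 1.77% and 3.45%.

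By the base under the summit, the 3′ UTR share of SLC peaks was above that of all exon peaks. The share over all protein-coding exon peaks was 26.7% in replicate 1 and 21.2% in replicate 2, below the SLC interval in each list. The mean SLC share was 30.3% ± 4.17 (SD, n = 2) and that of all exon peaks 23.9% ± 3.88. Counted by gene, 90 of the 143 SLC genes with a peak in replicate 1 (62.9%, interval 54.8 to 70.4) had a 3′ UTR summit, against 50.8% of all protein-coding genes with a peak. In replicate 2 it was 77 of 157 (49.0%, 41.3 to 56.8) against 40.9%, which lay just under the interval. When a peak was placed by the class of most of its exonic bases, the shares were 35.6% (30.97 to 40.5) against 30.6% in replicate 1 and 29.8% (25.3 to 34.6) against 24.4% in replicate 2. Placed in this way, CDS held 191 of 382 SLC peaks in replicate 1, with an interval of 45.01 to 54.99, against 54.6% of all exon peaks. In replicate 2 it held 46.9% (41.9 to 52.0) against 53.9%. The means of both lists were then 48.5% against 54.3% for CDS and 32.7% against 27.5% for the 3′ UTR, so the lower CDS share lay at least as far from that of all exon peaks as the higher 3′ UTR share. The length of the 3′ UTRs was not adjusted for, and no test was made.

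**Figure D2:**
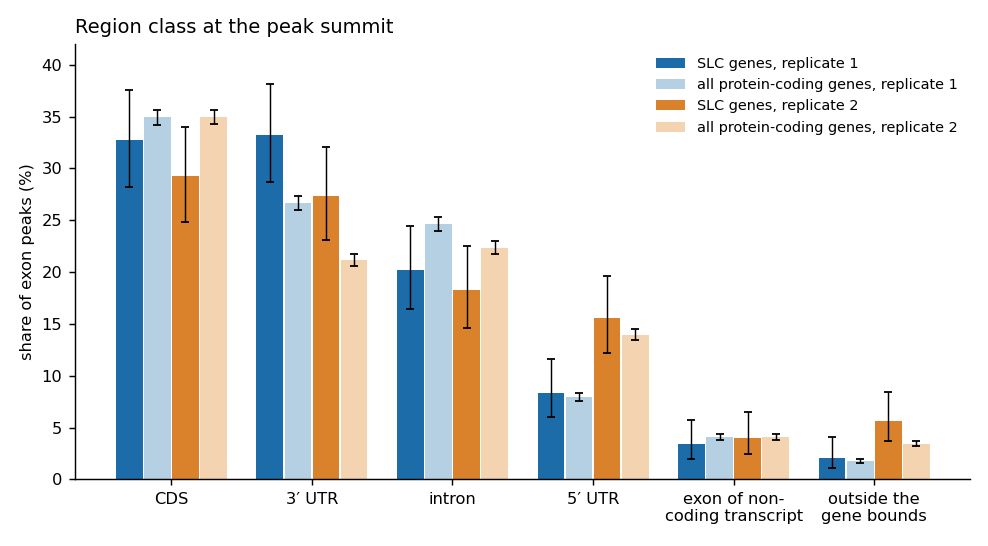
Share of exon peaks (y axis, percent) by the region class of the base under the summit (x axis), for SLC genes in dark and all protein-coding genes in light colours, blue for replicate 1 and orange for replicate 2. Bars show shares and error bars Wilson 95% intervals. The 3′ UTR share of SLC genes, 33.2% and 27.3%, lies above that of all genes in both lists.

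Start and stop codons were covered about as often as in other genes. In replicate 1, 12.8% of SLC peaks covered a start codon (interval 9.84 to 16.6) and 17.5% a stop codon (14.1 to 21.7). In replicate 2 both shares were 19.8% (16.1 to 24.2). The shares of all protein-coding exon peaks were 12.3% and 17.02% for start codons and 18.7% and 17.04% for stop codons, each within the SLC interval. Of the summits in introns, 69 of 77 in replicate 1 (89.6%, interval 80.8 to 94.6) and 60 of 68 in replicate 2 (88.2%, 78.5 to 93.9) lay within 150 nt upstream of the next exon. Over all protein-coding exon peaks the share was 93.1% in both lists, inside those intervals. Every peak counted had to overlap an exon, which itself places intronic summits near one.

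Fold enrichment and read number ranked the regions of the transcript in opposite orders. By the class of most exonic bases, SLC peaks in 5′ UTRs had a median fold of 7.90 in replicate 1 and 8.29 in replicate 2, with medians of 19 and 20.5 reads. Peaks in CDS had 7.17 and 6.93, with 23 and 26 reads. Peaks in 3′ UTRs had 5.86 and 5.78, with 35 and 38 reads. The 3′ UTR peaks thus stood on the most reads and the lowest folds. Their local background had a median of 4.95 and 5.41 reads, against 1.93 and 2.88 in CDS and 1.22 and 1.19 in 5′ UTRs, and fold is the ratio to that background. The same order held over all protein-coding exon peaks, with median folds of 7.51 and 8.33 in 5′ UTRs, 7.17 and 7.19 in CDS and 5.94 and 6.29 in 3′ UTRs.

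The classes were also compared inside genes. In replicate 1, 71 SLC genes had peaks both in the 3′ UTR and in CDS or 5′ UTR, and the 3′ UTR had the higher median pileup in 58 of them and the lower median fold in 47. In replicate 2 these counts were 57 and 46 of 66 genes. Of all protein-coding genes with such peaks, 80.5% and 75.4% had the higher pileup there and 65.2% and 67.1% the lower fold. Both held at once in 36 of the 71 SLC genes (50.7%, interval 39.3 to 62.0) and in 38 of the 66 (57.6%, 45.6 to 68.8), against 48.6% and 44.8% of all protein-coding genes with such peaks. The first exon was examined in genes with 3 or more peaks, at least 1 of them on that exon. The highest fold lay there in 14 of 28 SLC genes in replicate 1 and 21 of 38 (55.3%) in replicate 2. Over all such protein-coding genes the shares were 43.2% and 54.2%.

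Single genes are described next, starting with amino acid transporters. SLC7A5 and SLC3A2 encode the light and heavy chains of LAT1, an exchanger that brings leucine and other large neutral amino acids into the cell. SLC7A5, on the minus strand of chromosome 16, had 4 peaks in replicate 1, and replicate 2 had 5. The peak on its first exon, which covered the start codon, had a fold of 17.1 with 113 reads in replicate 1 and 13.0 with 95 reads in replicate 2. The peak over its 3′ UTR was 2574 bp wide in replicate 1 and 2406 bp in replicate 2 and had a fold of 4.11 in both, with 164 and 186 reads. The first exon thus ranked at percentiles 99.2 and 93.9 of fold in the 2 lists, and the 3′ UTR, with more reads, at 6.98 and 5.57.

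SLC3A2 had 2 peaks in each list, at either end of its coding sequence. The first covered the start codon, with folds of 9.78 and 11.7 and 42 and 67 reads. The second spanned exons 8 and 9 and the stop codon, with folds of 9.30 and 11.6 and 26 and 38 reads. Its summits lay 2 bp apart in the window printed above with 3 copies of GGAC. No peak was called over the middle exons in either list.

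SLC7A11, the transport subunit of the cystine/glutamate antiporter that supplies cysteine for glutathione, had 5 and 4 peaks. Its first-exon peak had a fold of 17.9 with 81 reads in replicate 1 and 13.8 with 40 reads in replicate 2, the summits 2 bp apart in the 5′ UTR. Its 2 peaks in the 3′ UTR had folds of 2.82 and 3.51 in replicate 1, with 76 and 74 reads. In replicate 2 their folds were 4.62 and 3.46, with 45 and 27 reads. The peak next to the stop codon also lies over an exon of SLC7A11-AS1, and since the lists carry no strand the reads of the gene and of its antisense partner cannot be told apart. The 3 remaining peaks, on exons 3 and 11 in replicate 1 and exon 9 in replicate 2, had no partner.

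SLC1A5, a glutamine transporter, had 5 peaks in each list, and all 5 overlapped in pairs. In replicate 1 the folds ran from 4.32 to 8.06 and the pileups from 50 to 109 reads. In replicate 2 they ran from 4.19 to 9.07 and from 46 to 138 reads. In both lists the highest fold lay on the first exon and the lowest on exon 5. An exon of an unnamed gene also lay under the first-exon peak, and without strand its reads cannot be assigned.

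SLC7A1, which imports arginine and other cationic amino acids, had 9 and 8 peaks. By the list where a gene had fewer peaks, SLC7A1 and the phosphate transporter SLC20A2 had the most of all SLC genes. Its 3′ UTR held 4 peaks in replicate 1, with folds of 2.33 to 2.63 on 131 to 151 reads, and 3 in replicate 2, with folds of 3.21 to 3.45 on 155 to 163 reads. The peak on exon 3, shown above with its GGAC, had folds of 10.8 and 14.3 on 66 and 82 reads. SLC6A6, the taurine transporter, had 7 peaks in each list, with folds of 3.31 to 7.06 in replicate 1 and 3.62 to 12.0 in replicate 2. SLC38A10 had 5 and 6 peaks, of which 3 of replicate 1 recurred. No peak was called in the glutamine transporters SLC38A1 and SLC38A2 in either list.

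SLC2A1 had its shared peak of highest fold on the first exon, and SLC16A1 had its only shared peak there. SLC2A1 encodes GLUT1, the basal glucose transporter. The peak on its first exon had a fold of 13.7 with 34 reads in replicate 1 and 22.5 with 105 reads in replicate 2, the highest fold of any SLC peak. Exons of SLC2A1-DT and of an unnamed gene also lay under it, and without strand its reads cannot be assigned. The peak over the SLC2A1 stop codon and 3′ UTR had folds of 6.48 and 5.97 with 97 and 126 reads. SLC16A1, which encodes the lactate transporter MCT1, had a shared peak over its first exon with folds of 12.4 and 13.3. The peak had 19 and 22 reads, with summits 2 bp apart in intronic sequence beside that exon. SLC16A1 had 2 other peaks in replicate 1 and 1 in replicate 2, each without a partner. SLC16A3, the lactate exporter MCT4, had 1 peak in replicate 1, with 30 reads and a fold of 6.45, and 0 in replicate 2.

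**Figure D3:**
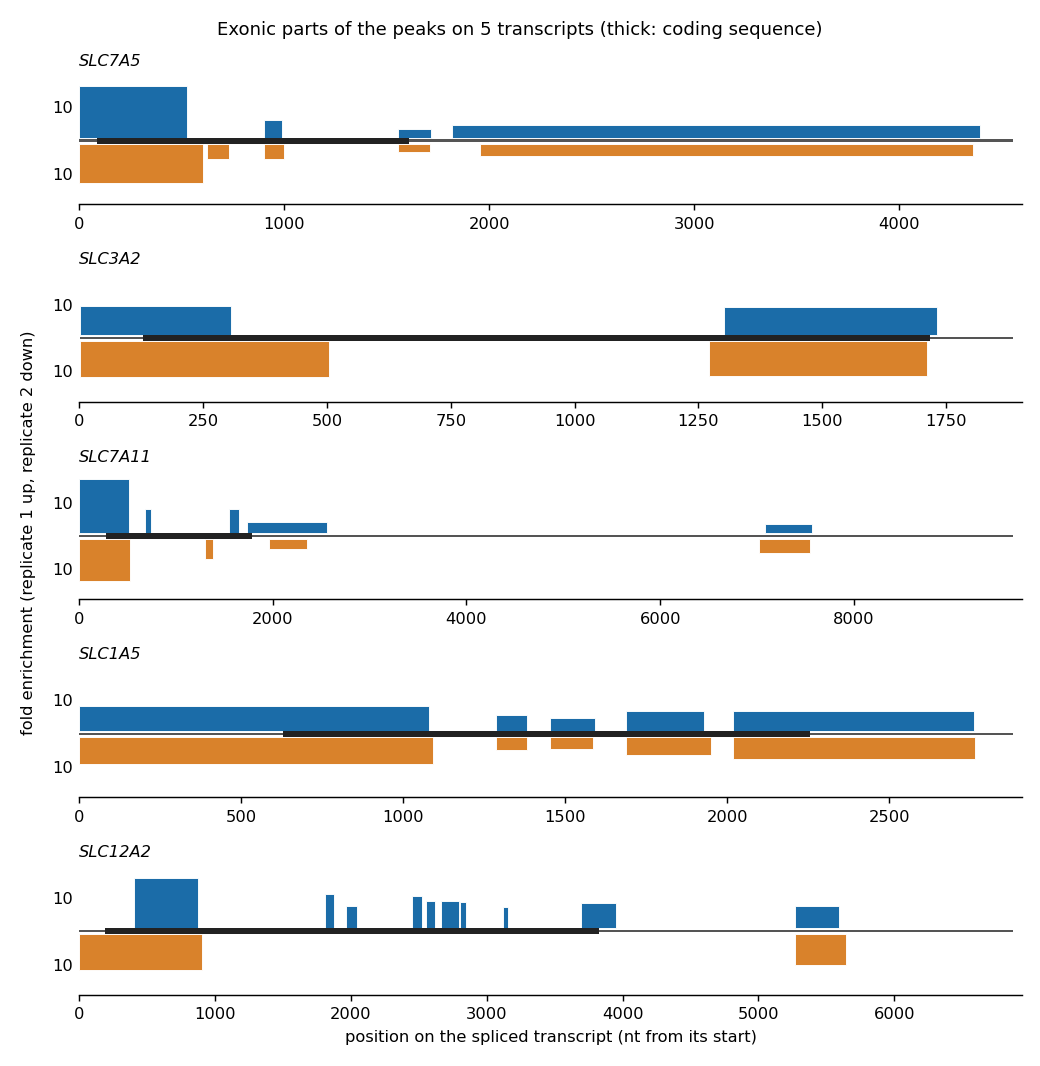
Exonic parts of the peaks of 5 SLC genes on the spliced transcript (x axis, nt from the transcript start), with bar height giving fold enrichment, replicate 1 in blue above and replicate 2 in orange below the transcript, whose coding sequence is drawn thick. SLC7A5, SLC7A11 and SLC12A2 have their highest bars at the 5′ end and low bars in the 3′ UTR of SLC7A5 and SLC7A11, and SLC12A2 has 10 bars above and 2 below.

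Mitochondrial carriers had many genes with few peaks each. SLC25A3, the phosphate carrier, had 1 peak in each list over its start codon, with folds of 4.81 and 8.40 on 11 and 20 reads. SLC25A5, an ADP/ATP carrier, had 3 and 4 peaks with folds of 4.02 to 9.32 over both lists, and 3 of them recurred. SLC25A6, another ADP/ATP carrier, had 3 shared peaks, over the start codon, exon 2 and the stop codon, with folds of 8.08 and 8.56, 6.07 and 5.62, and 8.68 and 7.73. SLC25A6 lies in the pseudoautosomal region. Its peaks are listed on the Y copy in both lists and none on the X copy, and the 31-mer at each summit occurs 2 or 3 times in the assembly, so the copy of origin cannot be told. SLC25A32, the mitochondrial folate carrier, had 1 peak in each list, over the start codon, with folds of 14.8 and 16.1 on 35 and 46 reads. An exon of DCAF13 also lies under that peak.

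The nucleotide sugar transporters SLC35D1 and SLC35D2 were, with SLC25A32, SLC2A1 and SLC7A11, the genes of the 5 shared pairs that ranked highest by the lower of their within-list percentiles. SLC35D1 had a start codon peak with folds of 13.3 and 14.6 on 26 and 36 reads, and 2 peaks in its 3′ UTR in replicate 1 and 3 in replicate 2 with folds of 3.84 to 6.90. SLC35D2 differed from the other 4 in that its peak, with folds of 12.6 and 15.4 on 39 and 51 reads, lay over the stop codon and 3′ UTR. An exon of an unnamed gene that overlaps SLC35D2 lay under it.

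Of the ion transporters with a peak, a few had a long series. SLC9A3, the sodium/proton exchanger of absorptive epithelia, had 6 peaks in each list, the strongest on the start codon with folds of 9.68 and 10.9 on 22 and 29 reads. The phosphate transporter SLC20A2 had 8 peaks in each list with folds of 6.02 to 11.6 over both, while its relative SLC20A1 had 3 and 1 peaks, no overlapping pair and 16 reads or fewer at every summit.

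SLC12A2, which encodes the sodium-potassium-chloride cotransporter NKCC1, had 10 peaks in replicate 1 but 2 in replicate 2. The first-exon peak was present in both, with folds of 16.7 and 11.9 on 62 and 52 reads and summits 5 bp apart in the window printed above. A 3′ UTR peak was also present in both, with folds of 7.36 and 10.05 on 57 and 25 reads. The 8 peaks with no partner lay on exons 10, 11, 15, 16, 17, 18, 21 and 27, with folds of 7.01 to 11.4 and 12 to 65 reads. SLC12A7, a potassium-chloride cotransporter, went the other way, with 3 peaks in replicate 1 and 7 in replicate 2.

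The zinc importers of SLC39 differed most in number between the lists, and SLC39A10 and SLC39A8 held most of the difference. In proportion, SLC2 was less even, with 5 and 12 peaks. SLC39A6 had 2 shared peaks, on exon 7 with folds of 14.5 and 9.89 on 33 and 15 reads and summits at the same base, and on exon 2 with folds of 13.6 and 8.26 on 37 and 16 reads. SLC39A11 had 5 peaks in each list, and all 5 of replicate 1 recurred, with folds of 7.17 to 9.73. SLC39A10 had 8 peaks in replicate 1, with folds of 5.95 to 12.5 on 9 to 31 reads, and 0 in replicate 2. SLC39A8 had 4 peaks in replicate 1, with folds of 6.49 to 13.6 on 9 to 21 reads, and 0 in replicate 2. The zinc exporter SLC30A1 had 2 peaks in its 3′ UTR in replicate 1 and 1 over its start codon in replicate 2, with no overlap.

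Among the vitamin and nucleoside transporters, SLC23A2, an ascorbate transporter, had 8 and 6 peaks. Its 3′ UTR held 5 in replicate 1, with folds of 2.70 to 5.23 on 55 to 107 reads, and 3 in replicate 2, with folds of 3.36 to 5.63 on 60 to 101 reads. SLC19A1, the reduced folate carrier, had 2 and 3 peaks, with a shared peak on exon 2 at folds of 9.17 and 9.28 and one over the stop codon at 3.54 and 4.02. SLC29A1, an equilibrative nucleoside transporter, shared a peak over the stop codon and 3′ UTR, with folds of 7.11 and 6.74 on 38 and 41 reads. SLC22A23, a member of the organic ion transporter family, had 11 and 6 peaks. Its last exon held 6 peaks in replicate 1 and 3 wider ones in replicate 2, with widths of 293 to 917 bp and 544 to 1514 bp, so part of the difference in number was a difference in how 1 covered stretch was divided.

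The strength of shared peaks was similar in the 2 lists. The 246 overlapping pairs lay in 111 genes, and a peak that overlapped several peaks of the other list entered several pairs. The fold enrichments of the 2 members had a Spearman's rho of 0.738 over pairs. This is a description in which pairs of 1 gene share a transcript and its reads, and some share a peak. The larger fold was within 1.5 times the smaller in 210 pairs. Summits lay a median of 42.5 bp apart, and 129 pairs had summits within 50 bp. The class of most exonic bases was the same in 235 pairs, of which 102 were in CDS, 91 in a 3′ UTR and 36 in a 5′ UTR. Both members covered a start codon in 40 pairs and a stop codon in 45.

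**Figure D4:**
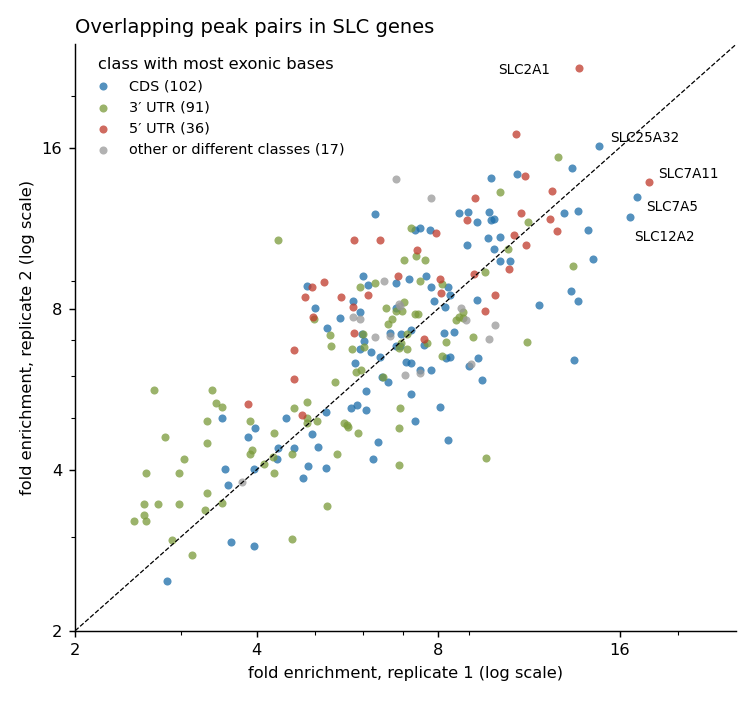
Fold enrichment of the 246 overlapping peak pairs in SLC genes in replicate 1 (x axis, log scale) and replicate 2 (y axis, log scale), coloured by the class of most exonic bases, with the dashed line marking equal folds. Pairs spread along the line, 3′ UTR pairs reach the lowest folds, and SLC2A1, SLC25A32, SLC7A11, SLC7A5 and SLC12A2 lie at the upper end.

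Peaks without a partner differed between the lists in base composition. In replicate 1 the median GC content of SLC peaks was 57.3% for those that recurred and 43.6% for those that did not. In replicate 2 it was 58.0% and 63.3%. Unshared peaks were therefore AT-rich in replicate 1 and GC-rich in replicate 2, and they were also shallower, with medians of 19 and 18 reads against 33 and 35. All protein-coding exon peaks showed the same order, with 53.6% and 42.7% in replicate 1 and 53.8% and 60.2% in replicate 2.

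As pooled groups, genes with uneven peak numbers followed this order, and their peaks include unshared peaks already counted above. The 9 genes with at least 3 more peaks in replicate 1, which included SLC10A7, SLC12A2, SLC17A5, SLC19A2, SLC22A23, SLC35F5, SLC39A10 and SLC39A8, had 56 and 15 peaks with a median GC content of 42.6%. The 6 genes with at least 3 more in replicate 2, SLC12A7, SLC35E2B, SLC35E4, SLC35F6, SLC41A3 and SLC6A8, had 9 and 29 peaks with a median of 61.0%. The 156 other SLC genes with peaks had 317 and 329 peaks with a median of 56.7%. The median was 35.4% in both SLC12A2 and SLC39A10 and 37.8% in SLC39A8, and 68.6% in SLC35E4, an orphan transporter with 0 and 4 peaks. These genes were singled out after their peak numbers were seen, and the part of base composition in the differences was not tested.

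**Figure D5:**
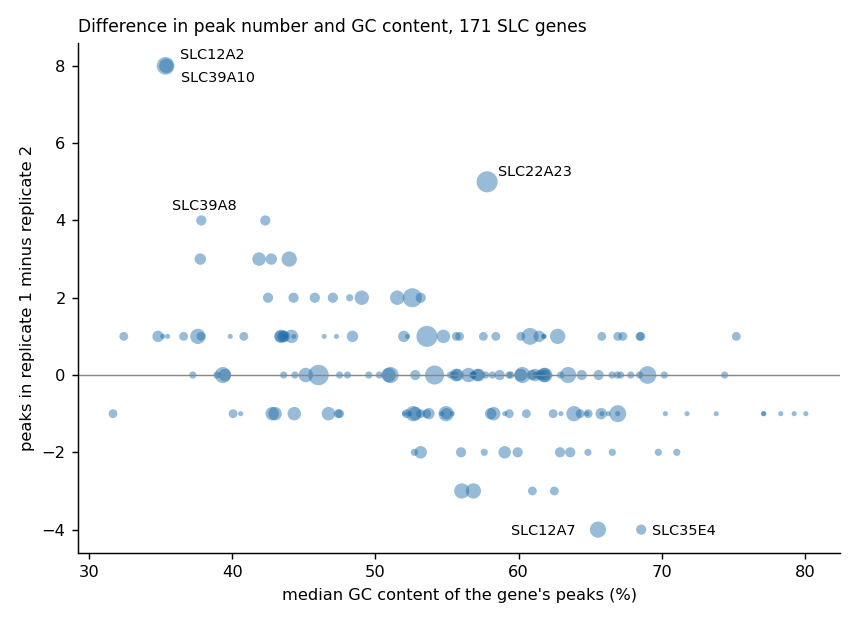
Number of peaks in replicate 1 minus replicate 2 (y axis) against the median GC content of the gene's peaks (x axis, percent) for the 171 SLC genes with a peak, with point area proportional to the number of peaks in both lists. SLC12A2 and SLC39A10 lie at a difference of 8 and 35.4% GC, SLC35E4 at -4 and 68.6%, and SLC22A23 at 5 and 57.8%.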

How the data were processed

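IGF2BP3 LACE-seq peak lists of 2 replicates of OE-19 cells were used. Peaks were called by the authors in each replicate on hg38. The submitters' processing notes name fastp, HISAT2 and MACS2, with no version given here, whereas the study's methods name Bowtie and Piranha. The deposited files have the narrowPeak layout of MACS. Start, end and summit offset are in bp, and strand is undefined. The authors deposited fold enrichment as a ratio to a local background, and a p-value and q-value on the −log10 scale. The deposited score column was not used.

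Pileups were recovered as the whole number that gives both the deposited fold, taken as (pileup + 1)/(local background + 1), and the deposited Poisson p-value. This worked for 21142 of 21142 and 20799 of 20799 peaks. The total number of reads is unknown. Pileup recovery and region classes were tested on simulated data, with 500 of 500 pileups and 745 of 745 classes recovered.

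Exons and classes came from all transcripts of GENCODE 44, in the order CDS, 3′ UTR, 5′ UTR, non-coding exon and intron. A peak took the strand of its gene. Genes were counted by symbol, which includes SLC2A4RG, SLC4A1AP and SLC7A6OS, whose symbols fit the rule but which are not transporters. Whole families were grouped by textbook cargo, so a group can hold members without that cargo, such as the orphan SLC35E4 among the nucleotide sugar transporters. Shares were computed per list, with the mean and SD over replicates, and with 1 group no test between groups was possible. Alternatives changed the overlap rule, the q-value, the transcripts, the position that stands for a peak, the treatment of other genes and repeats, and the replicate used. The named genes were a fixed list of 20, the 10 with most peaks in the list where they had fewer, the 5 of the strongest shared pairs and the 3 with most peaks in 1 list and 0 in the other. SLC12A7, and the genes with uneven peak numbers, were named after their values were seen. Some of these genes are not reported here. Members and lists were chosen with earlier results of these data known. Coordinates are 1-based. Python 3.11.15, NumPy 2.4.6, SciPy 1.17.1, pysam 0.24.0 and matplotlib 3.10.9 were used.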

Additional observations from a re-analysis of the deposited data

How the results depend on the processing

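Results are means over the replicates. Of 49 other settings tried on 12 results, 34 moved the value by less than 1 SD between replicates, or a count by less than 1.5 times, and leaving out a replicate gave the value of the other list. The number of SLC exon peaks, 378 as a mean, ranged from 331 to 373 under the alternatives, and the number of genes with a peak in both lists, 129, from 108 to 129. The shared share of 62.5% was 53.3% when peaks had to overlap by 50% of both, 34.2% when summits had to lie within 50 bp, 61.7% with a −log10 q-value of at least 5 and 61.7% without peaks over an exon of another gene. The CDS share of 30.97% was 48.5% by the class of most exonic bases, which leaves introns out, and 27.8% at the middle of the peak. The share in exons of non-coding transcripts, 3.71%, was 3.18% by most exonic bases, 3.18% at the middle and 0% with 1 transcript per gene, which is protein-coding by construction. The intron share of 19.2% was 23.8% at the middle, 27.3% with 1 transcript per gene and 20.7% without exons of another gene. Stop codon coverage of 18.7% was 14.8% with 1 transcript per gene. The median fold of 6.73 was 6.85 with the q-value limit. GGAC was in 31.8% of summit windows and in 75.4% of whole peaks, which are longer. The 3′ UTR share of 30.3% ranged from 29.2% to 32.7%. No paired analysis was possible because there is 1 group. Shallow peaks limit the comparison of lists, since peaks with 14 reads or fewer recurred in 34.2% and 30.99%.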

Other observations

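Some peaks lay inside the bounds of an SLC gene but over no exon of a protein-coding gene. There were 24 in replicate 1 and 26 in replicate 2, and 10 and 11 of them (41.7%, interval 24.5 to 61.2, and 42.3%, 25.5 to 61.1) overlapped a peak of the other list. Over all protein-coding genes, 1287 and 1055 peaks lay in such a place, and 43.98% (41.3 to 46.7) and 54.0% (51.0 to 57.0) of them overlapped. Both shares lay inside the SLC intervals. The SLC genes named here were chosen after their values were seen. The strongest peak lay in SLC39A11, a zinc transporter, at chr17:72664024-72664357, with a fold of 16.1 on 41 reads in replicate 1 and 17.8 on 46 reads in replicate 2. Its fold was above that of every exon peak of SLC39A11 in either list. A peak in SLC2A3, which encodes the glucose transporter GLUT3, had a fold of 12.1 in both lists, on 21 and 20 reads. On its exons, SLC2A3 had 0 peaks in replicate 1 and 1 in replicate 2. A peak in SLC4A10, a bicarbonate transporter, had folds of 9.73 and 7.39 on 13 and 9 reads.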
